A study of Arabidopsis thaliana with 3 samples.

Results

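Alternative respiration lets plant mitochondria pass electrons to oxygen without building the full proton gradient. Alternative oxidase takes electrons from ubiquinol ahead of the cytochrome chain, and type II NAD(P)H dehydrogenases feed electrons into ubiquinone without pumping protons, so that both run beside complexes I, III and IV. In Arabidopsis, AOX1A and a set of further nuclear genes are known to be induced when mitochondria are disturbed, and their transcripts are widely used as readouts of signalling from the mitochondrion to the nucleus.

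Transcripts of 8 such genes were followed: the alternative oxidases AOX1A (AT3G22370) and AOX1D (AT1G32350), the type II dehydrogenases NDA1 (AT1G07180), NDA2 (AT2G29990) and NDB2 (AT4G05020), the mitochondrial dicarboxylate carrier DIC2 (AT4G24570), the outer-membrane protein BCS1 (AT3G50930, also called OM66), and AT2G21640, which the array files describe only as an expressed protein. They were chosen by locus, as every noncontrol probe whose name starts with 1 of the 8 locus codes, but with earlier results of these data known. Each locus had 1 probe, which makes 8 of 37478 probes and 8 of 25665 loci on the arrays.

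RNA came from whole Arabidopsis thaliana seedlings, 3 days old, of wild type and of the tdt-1 mutant, grown on MS agar at 22 °C under constant light. Each of 3 arrays, given as biological replicates, held both genotypes: tdt-1 was labelled with Cy5 and wild type with Cy3 on replicates 1 and 2, and the dyes were swapped on replicate 3. The labels give neither the lesion nor the accession, and they name no pooling of seedlings. The reference gene table lists TDT as a synonym of DCP2, the mRNA decapping enzyme. Its probe stood at a log2 ratio of −0.62 ± 0.29 (SD, n = 3; limma adjusted p = 0.0629) and, as the place of the lesion is not known here, does not check the genotype.

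All ratios below are on the log2 scale, with tdt-1 as numerator, after loess normalisation, so they are relative to the bulk of transcripts, and ± is the SD over the 3 arrays. Adjusted p-values come from limma over all 20484 loci tested, with a threshold of 0.05. Across those loci the ratios of replicates 1 and 2 had r = 0.940 with each other but 0.527 and 0.573 with replicate 3, which also differed in dye orientation, array layout, scan day and scan resolution. These differences cannot be told apart. The 4 shoot markers and 5 root markers were well above background in both genotypes on all arrays, as whole seedlings should show.

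The probes lie, in the coordinates of the array files, at chr3:7908096-7908155 for AOX1A, chr1:11667225-11667381 for AOX1D, chr1:2206688-2206747 for NDA1 and chr2:12800651-12800710 for NDA2. Those of NDB2, DIC2, BCS1 and AT2G21640 lie at chr4:2576386-2576445, chr4:12687413-12687472, chr3:18942452-18942511 and chr2:9262607-9262666. The files name no genome build for them. The AOX1D coordinates span 157 bases and each of the others 60. All 8 probes passed the filter on dim spots, none was saturated, and 7 were well above background in both genotypes on all arrays. BCS1 was so in tdt-1 on 3 arrays and in wild type on 2, with replicate 1 the exception. The scanner software's multiplier for that flag was 2.6 on replicates 1 and 2 and 13 on replicate 3, so the rule differed between arrays. Cross-hybridisation between the related oxidase or dehydrogenase transcripts was not tested.

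The 8 genes did not move together. AT2G21640, BCS1 and AOX1A rose in tdt-1 by 3.79-fold, 2.12-fold and 1.76-fold, and NDA1 fell to 2.67-fold below wild type. AOX1D, NDA2, NDB2 and DIC2 did not pass the test, with mean ratios between −0.17 and 0.16. Thus 3 of 8 were higher and 1 was lower, beside 7.36% of all tested loci called higher, 5.97% called lower and 13.3% called in either direction. BCS1 passed the filter on dim spots through tdt-1 alone. With both genotypes required, 2 were higher and 1 lower, beside 1427 and 1263 of 18722 loci. As the genes were chosen with earlier results known, these shares do not test the 8 as a set. The median of the 8 ratios was 0.16, at 0.39, 0.18 and 0.046 on replicates 1, 2 and 3, beside a median of 0.024 over all tested loci. The ratio kept 1 sign on all 3 arrays for 5 of the 8 genes, a share near the 58.9% seen over all loci.

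**Figure D1:**
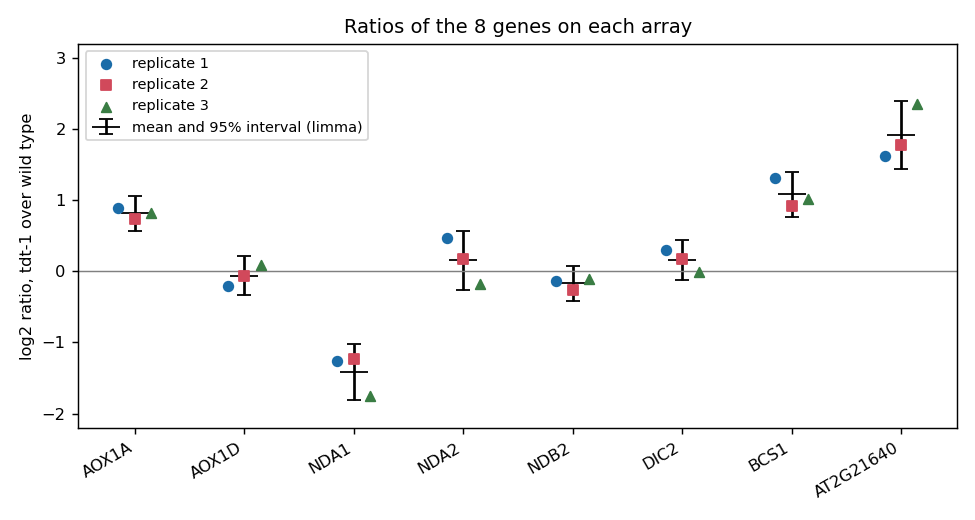
Log2 ratio of tdt-1 over wild type (y axis) for each of the 8 genes (x axis). Coloured points are the 3 arrays, the horizontal bar is their mean and the whiskers are limma's 95% interval; the intervals of AOX1A, BCS1 and AT2G21640 lie above 0, that of NDA1 lies below 0 and the other 4 cross it.

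Of the terminal oxidases, AOX1A encodes the main alternative oxidase of vegetative Arabidopsis tissue. Its normalised log2 signal was 10.96, 10.75 and 11.20 in tdt-1 and 10.07, 10.01 and 10.38 in wild type on replicates 1, 2 and 3. All 3 tdt-1 values lay above all 3 wild-type values, a separation that 13.5% of all tested loci showed in that direction and 26.8% in either. The ratios were 0.89, 0.74 and 0.82, with a mean of 0.81 ± 0.075 and a 95% interval of 0.58 to 1.05 (limma adjusted p = 0.0209). With loess, AOX1A had the smallest spread between arrays among the 8 genes, and replicate 3 with its swapped dyes fell between the other arrays. Neither held with median centring in place of loess, where its ratios were 1.47, 1.21 and 0.55.

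AOX1D, an isoform known for its induction under stress and in senescing leaves, had log2 signals of 7.77, 7.48 and 6.77 in tdt-1 and 7.98, 7.55 and 6.67 in wild type. The genotypes overlapped, and the arrays differed more than the genotypes did. Its ratios were −0.20, −0.066 and 0.096, with a mean of −0.058 ± 0.15 and a 95% interval of −0.34 to 0.22 (limma adjusted p = 0.717). The net signal over local background was only 53.8 to 67.7 units in tdt-1 and 90.8 to 149.6 in wild type, and with a normexp offset of 10 in place of 50 its mean ratio was −0.091. The AOX1A ratio exceeded that of AOX1D on each array, by 1.09, 0.80 and 0.72, or 0.87 ± 0.19 in the mean. An exact two-sided sign-flip test of that difference gave p = 0.25, the smallest that 3 arrays allow, and the same held for both dehydrogenase differences given below (adjusted over the 3 differences, p = 0.25).

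**Figure D2:**
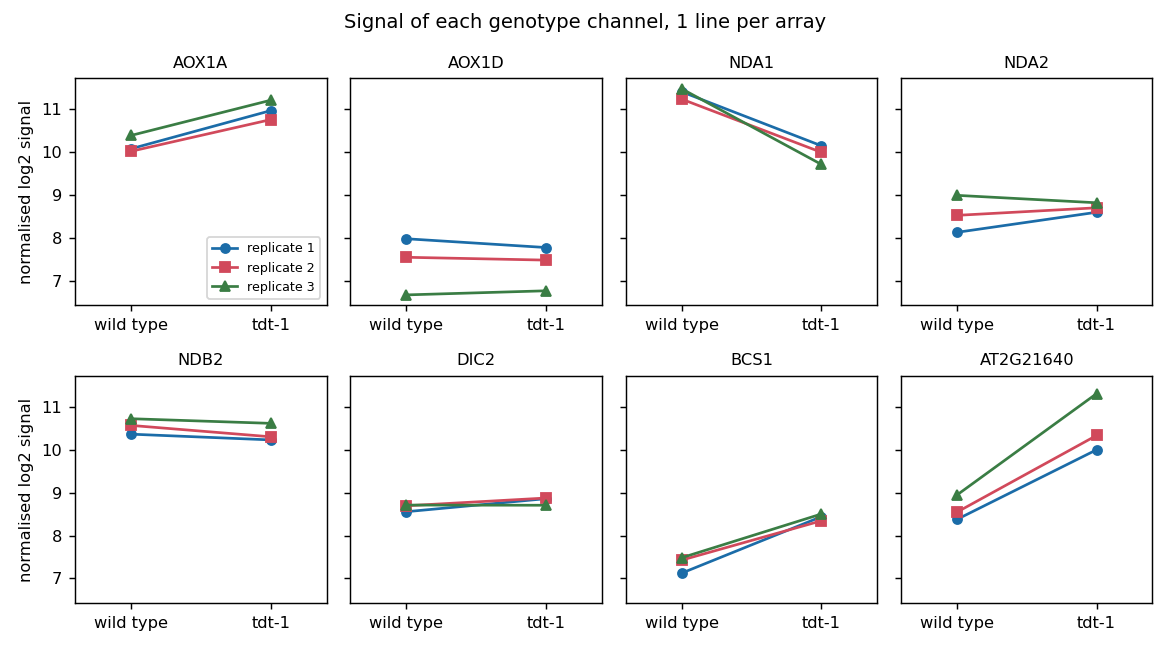
Normalised log2 signal (y axis) of the wild-type and tdt-1 channels (x axis) for each gene, with 1 line per array. Lines rise on all arrays for AOX1A, BCS1 and AT2G21640 and descend on all arrays for NDA1 and, by 0.11 to 0.26, for NDB2; signals of different genes come from different probes and are not comparable in height.

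Among the dehydrogenases, NDA1 encodes an enzyme on the matrix side of the inner membrane, and its transcript is known to depend on light. Its log2 signal was 10.14, 9.99 and 9.71 in tdt-1 against 11.40, 11.23 and 11.47 in wild type. Every tdt-1 value lay below every wild-type value, as it did for 13.3% of all tested loci. The ratios of −1.26, −1.24 and −1.76 gave a mean of −1.42 ± 0.30, with a 95% interval of −1.81 to −1.03 (limma adjusted p = 0.0197). NDA1 stood at rank 191 of 20484 from the lowest ratio.

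NDA2, the second matrix-side enzyme, had log2 signals of 8.59, 8.70 and 8.82 in tdt-1 and 8.13, 8.52 and 8.99 in wild type. The tdt-1 values lay inside the range of wild type, and the ratios of 0.47, 0.18 and −0.17 turned sign on replicate 3. Their mean of 0.16 ± 0.32 did not pass (95% interval −0.26 to 0.57, limma adjusted p = 0.505). The ratio of NDA2 stood above that of NDA1 by 1.57 ± 0.16 (1.72, 1.41 and 1.59 on the 3 arrays).

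NDB2 encodes a dehydrogenase on the outer face of the inner membrane, and in Arabidopsis its transcript often rises with that of AOX1A under stress. Here its log2 signal was 10.22, 10.30 and 10.61 in tdt-1 and 10.36, 10.56 and 10.72 in wild type, so the genotypes overlapped. The ratios of −0.13, −0.26 and −0.11 lay below 0 on all arrays, at a mean of −0.17 ± 0.084 that did not pass (95% interval −0.41 to 0.075, limma adjusted p = 0.256). The sign turned with median centring in place of loess, at 0.084. The interval of NDB2 lies wholly below that of AOX1A. Against NDA1, NDB2 was higher in ratio by 1.25 ± 0.36.

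DIC2 encodes a carrier that moves dicarboxylates such as malate across the inner membrane. Its log2 signal was 8.86, 8.87 and 8.70 in tdt-1 and 8.55, 8.69 and 8.71 in wild type, and the highest wild-type value lay just above the lowest tdt-1 value. The ratios were 0.30, 0.18 and −0.0043, with a mean of 0.16 ± 0.15 (95% interval −0.12 to 0.44, limma adjusted p = 0.333).

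BCS1 encodes an AAA-type ATPase that sits in the outer mitochondrial membrane and is known to be induced by mitochondrial stress and in defence. Its log2 signal was 8.44, 8.34 and 8.50 in tdt-1 and 7.12, 7.43 and 7.48 in wild type. The genotypes did not overlap, as for 13.5% of all tested loci in that direction and 26.8% in either. The probe was tested through its tdt-1 signal alone, and the wild-type values were the more scattered. The ratios of 1.31, 0.91 and 1.02 gave a mean of 1.08 ± 0.21, with a 95% interval of 0.76 to 1.40 (limma adjusted p = 0.0209). The net wild-type signal was 83.0 and 99.2 units on replicates 1 and 2, and the size of the ratio depends on how that faint signal is corrected: the scanner software's own log ratios were 5.54, 1.99 and 1.09, a mean of 2.87 or 7.32-fold that no longer passed (limma adjusted p = 0.118). With a normexp offset of 10 the mean was 1.45, or 2.74-fold.

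AT2G21640 had the highest ratio of the 8 as processed here, while with the scanner ratio BCS1 stood above it (2.87 against 2.22). The log2 signal of AT2G21640 was 9.99, 10.33 and 11.30 in tdt-1 and 8.37, 8.54 and 8.94 in wild type. Every tdt-1 value lay more than 1 unit above every wild-type value. A separation in that direction by any margin was seen for 13.5% of all tested loci. The ratios were 1.62, 1.79 and 2.36, with a mean of 1.92 ± 0.39 and a 95% interval of 1.45 to 2.40 (limma adjusted p = 0.0183). It stood at rank 82 of 20484 from the highest ratio, BCS1 at rank 506 and AOX1A at rank 979.

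**Figure D3:**
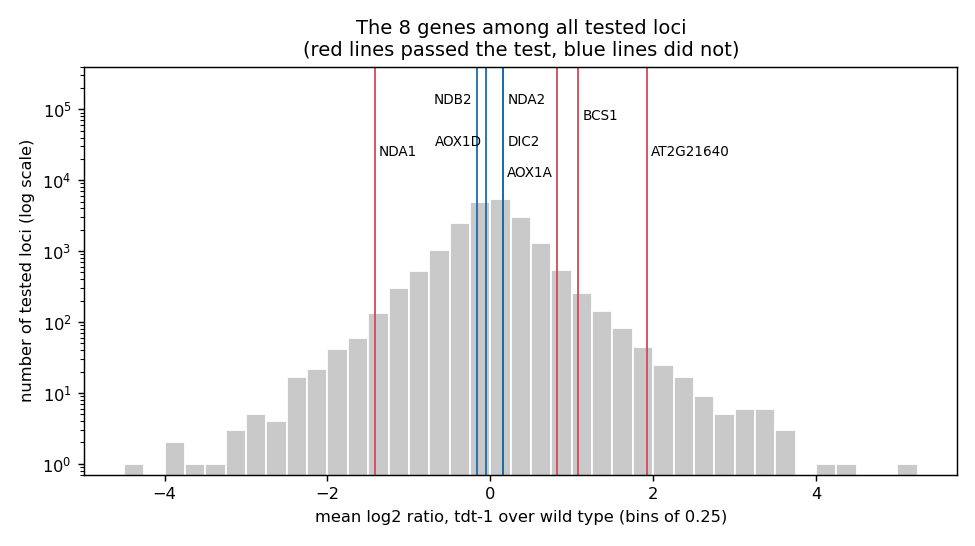
Number of tested loci (y axis, log scale) by mean log2 ratio of tdt-1 over wild type (x axis, bins of 0.25), with a vertical line for each of the 8 genes. Red lines (NDA1 at −1.42, AOX1A at 0.81, BCS1 at 1.08 and AT2G21640 at 1.92) passed the test, and blue lines lie near the centre of the distribution.

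A limma fit with a dye term, which also carries the array layout and the scan day and leaves 1 residual degree of freedom, tested whether the ratios differed between the dye orientations. With the scanner ratio that term passed for 0 of the 8 genes, but the share of all loci was not counted there, so that 0 cannot be weighed. As processed here it passed for 3 of the 8 genes and for 9129 of 20484 loci, or 44.6%. The 3 were AT2G21640 (adjusted p = 0.00952), higher on replicate 3 than in the mean of 1.70 over replicates 1 and 2, NDA1 (adjusted p = 0.0131), lower on replicate 3 than their mean of −1.25, and NDA2 (adjusted p = 0.0429), where the mean of 0.32 over replicates 1 and 2 faced −0.17 on replicate 3. AOX1A stood at 0.81 in the mean of replicates 1 and 2 and 0.82 on replicate 3, and BCS1 at 1.11 and 1.02.

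The 4 calls rest on few arrays. Without replicate 1 only AT2G21640 passed (adjusted p = 0.0378), in a fit that called 0.962% of all loci. Without replicate 2, with 0.542% of loci called, none of the 8 did. At an unadjusted p under 0.05 limma there gave 3 of the 8 higher and 1 lower, beside 3637 of 20484 loci in either direction. Without replicate 3 the count was 5 higher and 2 lower, with NDA2, DIC2 and NDB2 added, beside 34.2% of all loci higher and 26.7% lower, in a fit that rests on the spread between the arrays that resemble each other most. The ratios of the 4 genes themselves moved little: AOX1A lay between 0.78 and 0.85, BCS1 between 0.97 and 1.17, AT2G21640 between 1.70 and 2.07 and NDA1 between −1.51 and −1.25 with any 1 array left out.

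**Figure D4:**
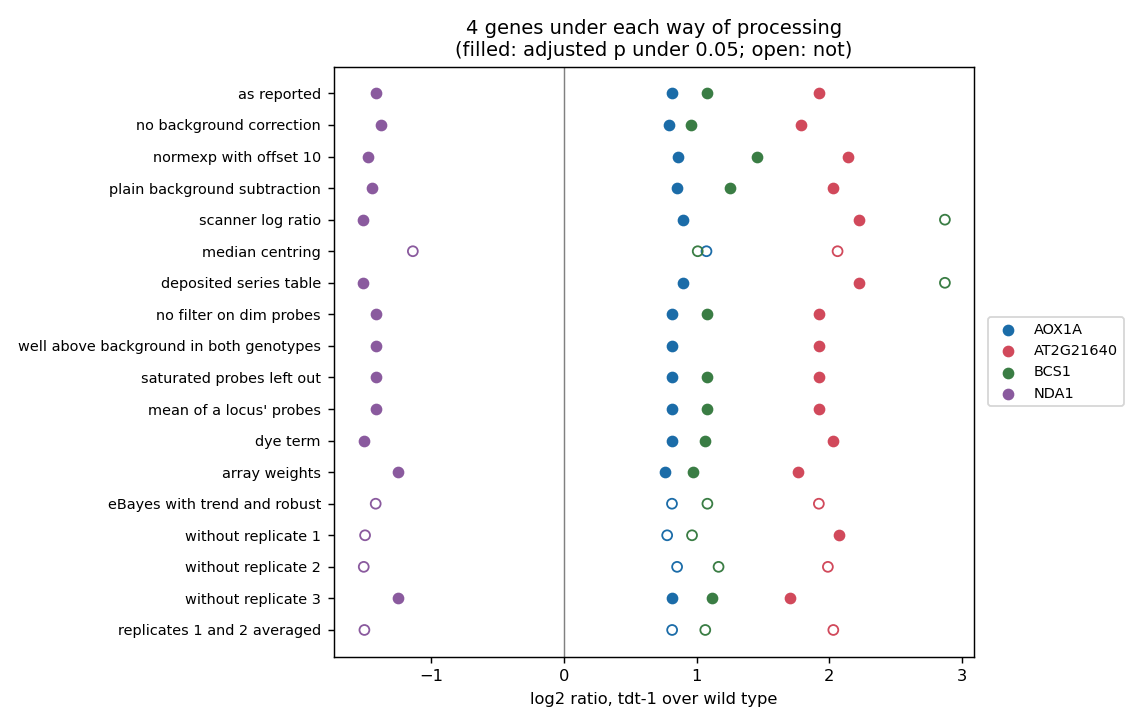
Log2 ratio (x axis) of the 4 genes that passed, under the reported processing and each of 17 alternatives (y axis); filled points had a limma adjusted p under 0.05 and open points did not. No point crosses 0, and the points farthest from their column are those of BCS1 at 2.87 with the scanner log ratio and the deposited table.

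The remaining genes of the same families were counted from a list by locus. It holds 12 further oxidases, dehydrogenases and uncoupling or dicarboxylate carriers, of which 11 were tested and none passed in either direction. At an unadjusted p under 0.05 limma gave 5 upward and 2 downward, beside 19.5% and 15.6% of all loci. Without replicate 3, 7 were called higher and 2 lower (34.2% and 26.7% of all loci), and with the dye term 6 higher and 5 lower (33.9% and 30.6%). With the scanner ratio AOX1C (1.38, adjusted p = 0.0418) and NDB4 (1.84, adjusted p = 0.0304) were called higher, in a fit that called 8.3% of all loci higher. Their median was 0.30. AOX2, an oxidase known from seeds, was not well above background in either genotype on any array. AOX1C stood at 0.96 ± 0.70 (adjusted p = 0.101), with 1.76 on replicate 3 against 0.54 and 0.57, and AOX1B, the neighbour of AOX1A on the chromosome, at 0.30 ± 0.30 (adjusted p = 0.225). The external dehydrogenase NDB4, well above background in wild type on 2 arrays, stood at 0.67 ± 0.54, NDB1 at −0.17 ± 0.10, and NDB3 at −1.06 ± 1.52 with −2.81 on replicate 3. NDC1, also found in plastids, stood at −0.37 ± 0.064 (adjusted p = 0.0638). Among the carriers, UCP5 (also called DIC1) reached 0.64 ± 0.39 (adjusted p = 0.0848), the uncoupling proteins PUMP1, UCP2 and UCP3 stood at 0.34 ± 0.21, 0.31 ± 0.17 and −0.31 ± 0.095, and DIC3 at −0.42 ± 1.3, a ratio whose sign turned without replicate 3.

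Other genes known to be induced when Arabidopsis mitochondria are disturbed were higher in part. In that list 5 of 11 rose and 0 fell, with 6 short of the threshold, beside 7.36% and 5.97% of all loci, and the median was 0.45. This list too was chosen with earlier results known, and it was not tested as a set. The mitochondrial small heat shock proteins HSP23.6-MITO and AT5G51440 rose by 3.22 ± 0.26 and 2.51 ± 0.29 (adjusted p = 0.0126 and 0.0145). UGT74E2, a glucosyltransferase of the auxin indole-3-butyric acid, rose by 1.45 ± 0.28 (adjusted p = 0.0190). The others were the cytochrome P450 CYP81D8 (0.68 ± 0.21, adjusted p = 0.0391) and TIM17-1, a subunit of the inner-membrane import machinery (0.63 ± 0.21, adjusted p = 0.0441), both named after their values were seen. With no background correction neither passed (adjusted p = 0.0769 and 0.0736), nor did TIM17-1 with plain subtraction (adjusted p = 0.0515). With 1 array left out limma called between 2 (without replicate 2) and 8 (without replicate 3) of the 11, all higher. The fit without replicate 2 called 0.542% of all loci in either direction, and that without replicate 3 called 34.2% higher.

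Of the regulators of this signalling, 11 of 12 were tested, none rose and 1 fell, at a list median of 0.21. For this list and the next, the shares over all loci were 7.36% higher and 5.97% lower. MYB29, known for aliphatic glucosinolate synthesis and as a negative regulator of AOX1A, fell by 0.72 ± 0.24 (adjusted p = 0.0398, and 0.0570 with no background correction). Whether its change bears on AOX1A was not tested. WRKY15 stood at 0.63 ± 0.26 (adjusted p = 0.0546) and the kinase KIN10 at 0.25 ± 0.13 (adjusted p = 0.162). Mitochondrial chaperones and proteases had a median of 0.14: 2 of 12 rose, the heat shock cognate MTHSC70-2 (0.87 ± 0.080, adjusted p = 0.0199) and the chaperonin HSP60 (0.43 ± 0.043, adjusted p = 0.0484), and 10 did not pass, among them the prohibitin PHB6 at 0.33 ± 0.24 (adjusted p = 0.151). HSP60 did not pass with any other background treatment or with the scanner ratio (adjusted p = 0.0534 to 0.0579). Without replicate 1 or without replicate 2 no gene of either list was called, in fits that called only 0.962% and 0.542% of all loci. Without replicate 3 the regulators had 4 higher and 1 lower and the chaperones and proteases 4 higher and 3 lower, in the fit that called 34.2% of all loci higher and 26.7% lower.

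Genes for amino acid breakdown in mitochondria, including those that pass electrons to ubiquinone through the electron transfer flavoprotein, had a median of −0.031. Of 13 tested, 1 was called higher and 1 lower, near the shares of 7.36% and 5.97% over all loci. ETFBETA, a subunit of that flavoprotein, rose by 0.56 ± 0.14 (adjusted p = 0.0402). ERD5, a proline dehydrogenase, fell by 1.26 ± 0.33 (adjusted p = 0.0244), while a second proline dehydrogenase of the list did not pass and had a mean ratio above 0. GDH1, a glutamate dehydrogenase, stood at −0.68 ± 0.43 (adjusted p = 0.0879, and 0.0264 at −0.97 with the scanner ratio). Without replicate 1 or 2 neither call held, in fits that called 0.962% and 0.542% of all loci. Without replicate 3 the list had 5 higher and 3 lower, beside 34.2% and 26.7% of all loci. Of 13 subunits of complexes I to V and cytochrome c, none passed over all loci, and limma gave 1 an unadjusted p under 0.05 upward and 2 downward (19.5% and 15.6% of all loci). Their ratios lay between −0.44 and 0.35, with a median of −0.011. Without replicate 3, 1 was called higher and 5 lower (34.2% and 26.7% of all loci). The 3 with the smallest p were EMB1467 and CI51 of complex I (−0.44 ± 0.17 and −0.28 ± 0.095) and AT5G13430, the iron-sulphur protein of complex III (0.35 ± 0.13).

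**Figure D5:**
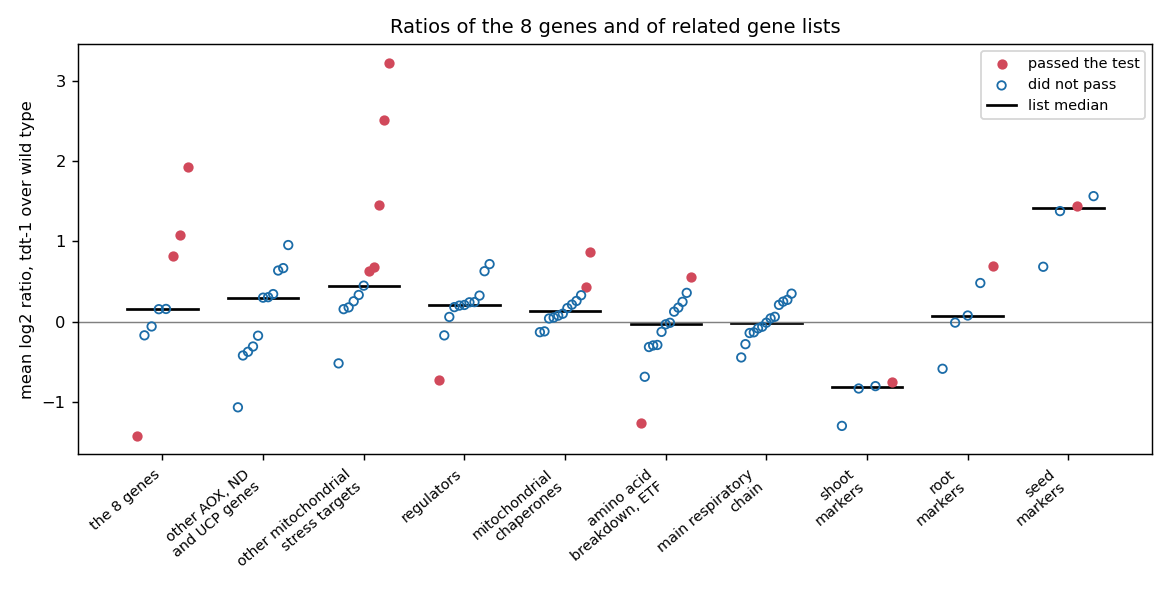
Mean log2 ratio of tdt-1 over wild type (y axis) for each tested gene of the 8 and of 9 further lists (x axis). Filled points passed the test, open points did not and the black bar is the list median, which is 0.45 for the other mitochondrial stress targets and −0.011 for the main respiratory chain.

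The genes outside these lists whose ratios lay nearest to those of AOX1A, by Euclidean distance over the 3 arrays, were AT4G25433, described as a LysM domain protein (distance 0.0354), and AT1G30880 and AT1G68490, both described as expressed proteins (0.0393 and 0.0726). With 3 values per gene such nearness is a description only.

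Summed markers of the shoot were lower in tdt-1 on each array, and those of the seed and of the root were higher. Taken singly, 2 of 4 tested seed markers and 4 of 5 root markers were mixed in sign between arrays. The summed log2 signal of the 4 shoot markers was 18.10, 18.01 and 16.45 in tdt-1 and 18.31, 18.32 and 18.68 in wild type, so the genotypes differed most on replicate 3. CAB1, a light-harvesting protein, fell by 0.75 ± 0.30 (adjusted p = 0.0476), while RBCS1A and LHCA1 stood at −0.80 ± 0.88 and −1.30 ± 1.74. The summed signal of 5 seed markers ranged from 10.78 to 11.50 for tdt-1 against 9.79 to 10.14 for wild type; EM1, a late embryogenesis protein, rose by 1.45 ± 0.13 (adjusted p = 0.0149), CRA1 and CRU3 stood at 1.56 ± 1.78 and 1.38 ± 1.70, and SESA1 was not well above background in wild type on any array. The summed signal of 5 root markers was 12.19, 12.42 and 12.68 in tdt-1 and 12.15, 12.28 and 11.96 in wild type, so the genotypes differed most on replicate 3. The list median was 0.078. CASP1 of the endodermis rose by 0.69 ± 0.14 (adjusted p = 0.0295). The other 4 root markers turned sign between arrays, among them SHV2 and PRP3 at −0.58 ± 0.66 and 0.48 ± 0.86. With the scanner ratio CAB1 did not pass (adjusted p = 0.0592) and CRU3 did, at 2.80 (adjusted p = 0.0376). The wild-type signal of CRU3 was well above background on only 1 array. As reported, CRA1 and CRU3 were highest on replicate 3, at 3.50 and 3.34. None of the reported marker calls held without replicate 2, and without replicate 1 only that of EM1 did. The part of these shifts in the ratios of the 8 genes was not tested, and in whole seedlings fewer cells of a type cannot be told apart from less RNA per cell.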

How the data were processed

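Expression was measured on 3 two-colour Agilent arrays, each with tdt-1 and wild-type RNA. The authors deposited uncorrected spot intensities and a log10 ratio of Cy5 over Cy3, made, per the file headers, with Agilent Feature Extraction 8.5.1.1 (replicates 1 and 2) or 9.1.3.1 (replicate 3). The deposited series table holds log2 ratios; against the scanner ratios of the same arrays its direction is tdt-1 over wild type (r = 1), with a median of 0 per array.

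From the intensities, background was corrected by normexp (offset 50), ratios were normalised by loess within arrays with controls at weight 0, replicate 3 was turned, and control and non-uniform spots were left out (limma 3.58.1, R 4.3.3). A probe was tested where 1 genotype was well above background on all 3 arrays, and the brightest probe stood for a locus. Levels were scaled between arrays by Aquantile. The test was lmFit and eBayes with Benjamini-Hochberg adjustment. Only this fit, and none of the steps before it, was run on simulated ratios with known changes. The simulated arrays were independent and equal in spread, which replicate 3 here was not, so that run does not check the calls. The labels call the arrays biological replicates, and their small number sets how precise the ratios can be. Each limma p-value sets the mean ratio against a variance that joins the gene's own spread between arrays with that typical of all loci. The p-values therefore do not follow the SD of a single gene.

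The members and lists were chosen with earlier results of these data known. Named are all 8 genes, the 3 smallest p of each list, all further tested genes of the oxidase, dehydrogenase and carrier list, and the 3 genes nearest AOX1A. All 95 listed loci matched the reference table (TAIR10.1, used for names only). Promoter motifs were not analysed here.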

Additional observations from a re-analysis of the deposited data

How the results depend on the processing

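Each of 17 alternatives was fitted with limma over all loci. Background correction (none, offset 10, subtraction), filters, probe averaging and saturated spots left 3 genes higher and 1 lower, except that the filter on both genotypes left out BCS1; with the scanner ratio or the deposited table, 2 genes were higher and 1 lower, BCS1 not passing. Counts of all loci, 1508 higher and 1222 lower as reported, were 1 and 0 with median centring, 6941 and 6260 with a dye term, 8170 and 6710 with array weights, 0 and 0 with a trended, robust variance (smallest adjusted p 0.0638, with 7318 loci at an unadjusted p under 0.05), 24 and 19 with replicates 1 and 2 averaged, and 66 to 7002 and 45 to 5463 with 1 array left out. Of the 8 genes, 0 were higher and 0 lower with median centring, the trended variance or replicates 1 and 2 averaged, 5 and 2 with array weights, and 0 to 5 and 0 to 2 with 1 array left out. With median centring, the trended variance and replicates 1 and 2 averaged, 3 and 1 had an unadjusted p under 0.05 in each. Over all 20484 loci that rule gave 3635, 7318 and 3731 in either direction. Array weights gave replicate 3 a weight of 0.106 against 1.27 and 7.40. The dye term passed for 0 of the 8 genes with the scanner ratio, for which the share of all loci was not counted. Median centring moved the median of all loci from 0.024 to 0.102. The cause of these shifts was not tested.

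The ratios of AOX1A, AT2G21640, BCS1 and NDA1 kept their sign in every alternative that gave a value, with adjusted p up to 0.177, 0.0731, 0.145 and 0.227. Among the genes named with values, and not over every listed gene, signs turned for AOX1D at 0.031 with the scanner ratio or the deposited table and 0.015 without replicate 1 (−0.14 to 0.015 with 1 array left out), DIC3 at 0.058 with either, 0.35 with array weights and 0.33 without replicate 3 (−0.83 to 0.33), NDB2, NDB1, CI51 and CYTC-1 at 0.084, 0.096, 0.016 and 0.24 with median centring, and, with array weights and without replicate 3, PRP3 at −0.052 and −0.014, ABI4 at −0.22 and −0.12, AT5G09570 at 0.37 and 0.28 and CYTC-2 at −0.12 and −0.13. None of these genes had passed as reported. With 1 array left out the highest value was 0.77 for PRP3, 1.23 for ABI4 and 0.48 for CYTC-2, and the lowest was −1.0 for AT5G09570. Each ratio sets both genotypes of 1 array against each other, so the reported test is already paired. Low signal over background limits AOX1D and the wild-type value of BCS1.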

Other observations

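Some listed genes stood apart on replicate 3 alone. They are given as values and were picked after those were seen. ABI4, a transcription factor known to repress AOX1A in Arabidopsis, had ratios of 0.080, −0.31 and 2.39 on replicates 1, 2 and 3 (limma adjusted p = 0.431). Its relation to AOX1A was not tested. AT5G09570, from the list of mitochondrial stress targets, stood at 0.11, 0.45 and −2.12 (adjusted p = 0.549), opposite in sign on replicate 3 to AT2G21640. Cytochrome c transcripts split there, with CYTC-2 at −0.11, −0.14 and 1.07 and CYTC-1 at −0.074, −0.11 and −0.0043 (adjusted p = 0.537 and 0.644).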
